A study of Bos taurus with 9 samples.

Results

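The genes described here are 10 cytokine and chemokine genes that uterine epithelium can express: the colony stimulating factors CSF2 and CSF1, the TNF superfamily ligands TNFSF15 and TNFSF10, the interleukin genes IL1A, IL18, IL33 and IL6, and the chemokines CXCL8 and CCL20. They were taken by symbol from the 20679 genes of the deposited tables, and all 10 were found. They were chosen by name with the measured TPM and count differences between the groups of these same libraries already known, so their levels and differences are a description, and the p-values printed for them are their rows in tests run over all genes and give no independent support to the choice.

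RNA-seq was performed on bovine uterine gland fragments, pieces of endometrial gland isolated from abattoir uteri and cultured in Matrigel, a basement membrane gel, until day 5, with 3 libraries in each of 3 groups. The CYST group received no epidermal growth factor (EGF), and its fragments formed cysts. The UG-LIKE group received EGF in Matrigel and formed uterine gland-like structures. The MAT + COL group received EGF in Matrigel to which type I collagen was added, and its libraries also come from uterine gland-like structures. The name UG-LIKE stands here for the EGF group without added collagen. The basal medium of all groups held insulin, transferrin, sodium selenite, ascorbic acid and bovine serum albumin, so no group was free of insulin. The labels do not tie a library to an animal or culture. The paper describes its UG-LIKE and MAT + COL libraries as clustering mainly by individual, and its text does not say which libraries share one. The p-values measure the spread between these libraries, and fits that take the replicate number into account are given beside the others.

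Cytokines are secreted or membrane-bound proteins through which cells signal to their neighbours, and chemokines are the subset that directs the movement of leukocytes. In the endometrium the glandular epithelium is known as a source of both, and colony stimulating factors and interleukins from it reach the uterine lumen and the conceptus. Several of these proteins are controlled after transcription, by processing, shedding or release from damaged cells, so an mRNA level is not a protein level.

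Total counts per library ranged from 8424028 to 16829884 in the CYST group, from 6568968 to 17936445 in the UG-LIKE group and from 16665013 to 17948600 in the MAT + COL group. The gland epithelium markers (EPCAM, CDH1, KRT7, KRT8, KRT18, KRT19, MUC1 and FOXA2) were all detected, with a summed level of 19330 to 22050 TPM (transcripts scaled to gene length and library size) in the CYST libraries, 31630 to 49140 in the UG-LIKE libraries and 31990 to 43310 in the MAT + COL libraries. The 16 leukocyte markers summed to between 27.3 and 50.3 TPM in every library, of which CD14 gave 13.2 to 45.2, 2 of them (CD79A and CPA3) had no count anywhere, and PTPRC, the pan-leukocyte CD45 gene, was at most 1.19 TPM. The 7 fibroblast and stroma markers were present, at summed levels of 1986 to 4486 TPM in the CYST group, 738.5 to 2946 in the UG-LIKE group and 1870 to 3439 in the MAT + COL group. In bulk RNA of this kind, fewer cells of a type and less RNA per cell cannot be told apart.

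TNFSF15 was the member that stood furthest apart between the groups. Its mean TPM was 8.55-fold higher in the UG-LIKE group than in the CYST group. Without the replicate number in the model, it was the 1 of the 10 genes that passed the edgeR test there. With that number in the model, TNFSF10 passed as well. TNFSF10 was also higher, and CXCL8 and IL1A were lower, in every UG-LIKE library than in any CYST library. CSF2, the gene with the highest mean of the 10, had overlapping levels in the CYST and UG-LIKE groups and its lowest levels in the MAT + COL group. IL6, IL33 and CCL20 varied more between libraries of a group than between the groups.

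**Figure D1:**
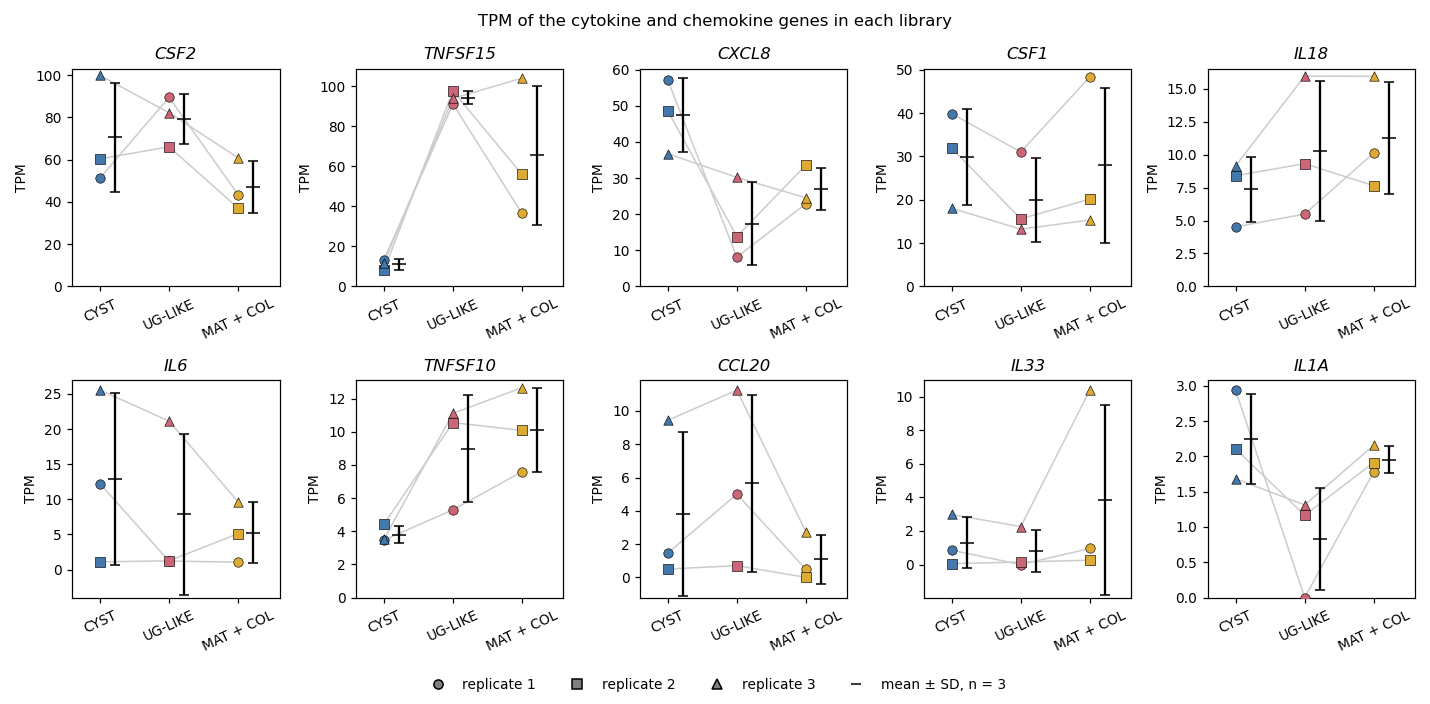
TPM of the 10 genes (y axis, 1 panel per gene, each with its own scale) in the 3 CYST, 3 UG-LIKE and 3 MAT + COL libraries (x axis), with the mean ± SD of each group beside the points and grey lines joining libraries of the same replicate number. TNFSF15 rises from between 8.05 and 13.2 TPM in the CYST libraries to between 91.2 and 97.7 in the UG-LIKE libraries, whereas replicate 3 is the highest point of every group for IL6, IL33 and CCL20.

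TPM is scaled to transcript length, so levels can be set side by side between genes. Over the 9 libraries the mean TPM was 65.6 for CSF2, 56.9 for TNFSF15, 30.6 for CXCL8 and 25.9 for CSF1. It was 9.63 for IL18, 8.70 for IL6, 7.63 for TNFSF10, 3.51 for CCL20, 1.99 for IL33 and 1.67 for IL1A. Among the 15904 genes with any count, the mean of CSF2 was above that of 84.35%, and the mean of IL1A above that of 31.25%. Summed over the 10 genes, the level was 187, 165.4 and 218.7 TPM in CYST replicates 1, 2 and 3, 236.7, 216.3 and 282.6 in UG-LIKE replicates 1, 2 and 3, and 173.1, 171.8 and 258.3 in MAT + COL replicates 1, 2 and 3. The make-up of that sum differed more than its size. TNFSF15 held 4.87% to 7.08% of it in the CYST libraries, 33.25% to 45.2% in the UG-LIKE libraries and 21.05% to 40.3% in the MAT + COL libraries. CXCL8 held 16.8% to 30.6%, 3.42% to 10.7% and 9.49% to 19.6%, respectively.

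The comparison of the UG-LIKE group with the CYST group asks what EGF changes in fragments kept in the same gel. Tested with edgeR over 12074 genes, 1 of the 10 genes passed an adjusted p of 0.05, against 1.79% of all genes tested. The unadjusted p of 3 of the 10 was below 0.05, against 20.7% of all genes. When the replicate number entered the model as a block, 2 of the 10 passed, against 10.6% of all genes. The DEG criteria of the study also ask for a Log2FC beyond 1 and a TPM over 1. Applied here to the edgeR fit, with that TPM in every library compared, they gave 1 of 10, against 1.45% of all genes. These counts are not the study's own DEG counts, and the study reported more DEGs over all genes for this comparison. The TPM ranges of the groups did not overlap for 4 of the 10 genes, against 23.7% of all genes tested. The median Log2FC of the 10 was -0.24, with 5 positive and 5 negative values, and that of all genes tested was 0.01.

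For MAT + COL against UG-LIKE, which asks what collagen I adds to EGF, edgeR called 0 of the 10 genes, and 0% of all 12470 genes tested. The unadjusted p was under 0.05 for 1 of the 10 without the block and for 5 with it, against 0.409% and 4.96% of all genes, and DESeq2 called 0 genes of any kind. The TPM ranges did not overlap for 2 of the 10, against 3.57% of all genes. For MAT + COL against CYST, where EGF and collagen I differ together, 9 of the 10 passed the filter on low counts, and the edgeR fit called 0 of these, against 1.49% of the 12509 genes tested. Adding the block gave 2 calls, against 5.26%, and the DEG criteria gave 0, against 1.13%. There, 3 of the 9 had an unadjusted p under 0.05, against 21.7% of all genes, DESeq2 called 3, against 11.6% of the genes to which it gave an adjusted p, and the TPM ranges of 3 did not overlap, against 24.7% of all genes. Both comparisons with the CYST group use the same 3 CYST libraries, and the UG-LIKE and MAT + COL libraries are each used in more than 1 comparison, so the values are set side by side and are not independent.

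**Figure D2:**
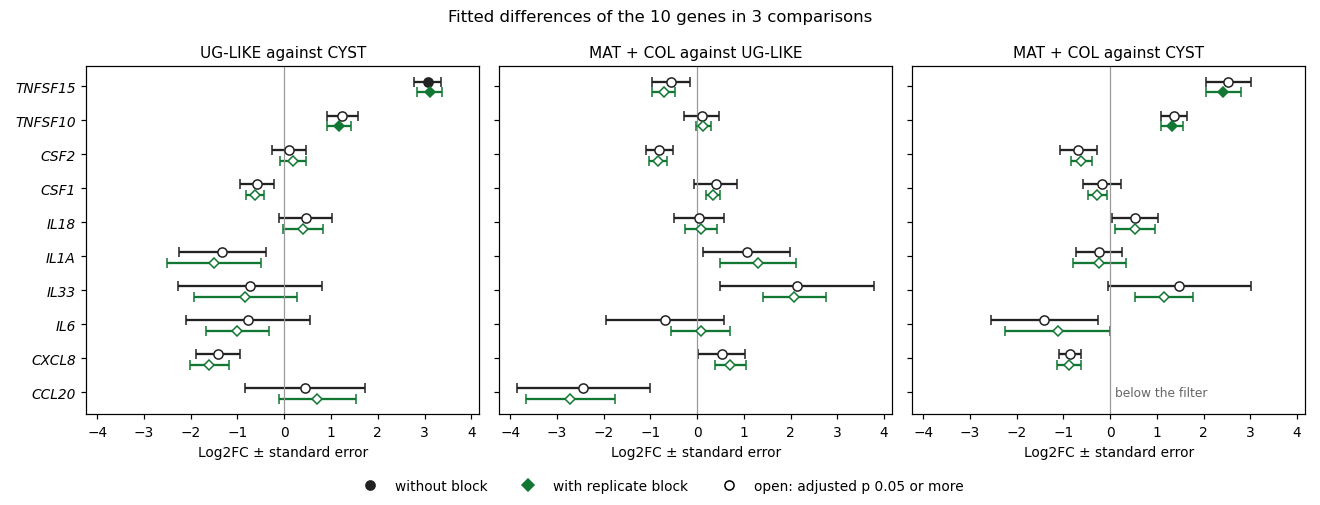
Log2FC ± standard error (x axis) of each gene (y axis) in the 3 comparisons, from edgeR without the replicate block (circles) and with it (diamonds); filled symbols have an adjusted p under 0.05. TNFSF15 is at 3.07 in UG-LIKE against CYST and 2.53 in MAT + COL against CYST, and no symbol is filled in MAT + COL against UG-LIKE; CCL20 was below the filter in MAT + COL against CYST.

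The colony stimulating factors drive the growth and survival of myeloid cells, and CSF2 is also known in cattle as a uterine factor that acts on the early embryo. CSF2 (ENSBTAG00000001570; ARS-UCD2.0, chromosome 7 from 22398938 to 22401303, minus strand) was at 51.3, 60.3 and 99.8 TPM in CYST replicates 1, 2 and 3, at 89.4, 66.1 and 82.2 TPM in UG-LIKE replicates 1, 2 and 3, and at 43.4, 37.1 and 60.9 TPM in MAT + COL replicates 1, 2 and 3. The CYST and UG-LIKE libraries overlapped, whereas every MAT + COL library was below every UG-LIKE library. Its counts in the 9 libraries ranged from 151 to 404, so counting error was small beside the spread between libraries. The group means were 70.5 ± 25.8, 79.2 ± 11.96 and 47.1 ± 12.3 TPM (SD, n = 3 each). Between UG-LIKE and CYST the Log2FC was 0.11 (standard error 0.36, edgeR adjusted p = 0.900).

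Between MAT + COL and UG-LIKE the Log2FC of CSF2 was -0.81 (standard error 0.29, edgeR adjusted p = 1), which did not pass. The difference had the same sign at each replicate number, with differences in log2 CPM (counts scaled to library size) of -1.165, -0.87 and -0.47 for replicates 1, 2 and 3. With the block the unadjusted p was 0.0011 and the edgeR adjusted p 0.955. Over all genes tested in that comparison, 0.818% had every MAT + COL library below every UG-LIKE library in TPM. Against CYST, the Log2FC of MAT + COL was -0.68 (standard error 0.40, edgeR adjusted p = 0.369), and the TPM ranges overlapped.

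CSF1 (ENSBTAG00000000283; chromosome 3 from 33489163 to 33509056, minus strand), the macrophage colony stimulating factor, was at 39.9, 31.9 and 18.02 TPM in CYST replicates 1, 2 and 3, at 31.0, 15.6 and 13.2 TPM in UG-LIKE replicates 1, 2 and 3, and at 48.3, 20.1 and 15.3 TPM in MAT + COL replicates 1, 2 and 3. The groups overlapped in all comparisons, and replicate 1 was the highest and replicate 3 the lowest library in each group. UG-LIKE was below CYST at each replicate number, by 0.33, 0.92 and 0.63 on the log2 CPM scale. The Log2FC was -0.58 (standard error 0.36, edgeR adjusted p = 0.405), and with the replicate block it was -0.63 (standard error 0.20, edgeR adjusted p = 0.0817), so neither fit called the gene. MAT + COL was above UG-LIKE at each replicate number, with a Log2FC of 0.39 (standard error 0.45, edgeR adjusted p = 1).

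TNF superfamily ligands act as trimers on death receptors and related receptors of the TNF receptor family. TNFSF15 (ENSBTAG00000018069; chromosome 8 from 103968196 to 103989086, minus strand) encodes TL1A, a ligand known as a costimulator of T cells and an inhibitor of endothelial growth. It was at 13.2, 8.05 and 11.8 TPM in CYST replicates 1, 2 and 3, at 91.2, 97.7 and 94.0 TPM in UG-LIKE replicates 1, 2 and 3, and at 36.4, 56.0 and 104.1 TPM in MAT + COL replicates 1, 2 and 3. All 6 libraries with EGF were above the 3 CYST libraries, and the MAT + COL libraries overlapped the UG-LIKE libraries. The counts behind these values were 66 to 78 in the CYST libraries, 354 to 1012 in the UG-LIKE libraries and 365 to 1014 in the MAT + COL libraries.

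The UG-LIKE libraries were close to each other, at 94.3 ± 3.28 TPM (SD, n = 3), against 65.5 ± 34.8 TPM in MAT + COL and 11.03 ± 2.68 TPM in CYST. TNFSF15 rose in UG-LIKE against CYST, with a Log2FC of 3.07 (standard error 0.29, edgeR adjusted p = 0.00956), and the log2 CPM difference was 2.79, 3.665 and 2.79 at replicate numbers 1, 2 and 3. This call was lost without CYST replicate 1 (Log2FC 3.20, edgeR adjusted p = 0.0559) and without UG-LIKE replicate 1 (Log2FC 3.16, edgeR adjusted p = 0.0514), where 7 and 9 genes in all were called. Against CYST, MAT + COL had a Log2FC of 2.53 (standard error 0.48, edgeR adjusted p = 0.0546), and the replicate block gave 2.42 (standard error 0.38, edgeR adjusted p = 0.0306), which passed. Between MAT + COL and UG-LIKE the Log2FC was -0.57 (standard error 0.40, edgeR adjusted p = 1), with log2 CPM differences of -1.45, -0.85 and 0.11 at replicate numbers 1, 2 and 3. Only replicate 3 of MAT + COL was as high as the UG-LIKE libraries.

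The summed gland epithelium markers also did not overlap between the CYST libraries and the libraries with EGF. All 8 of these markers had a positive Log2FC in UG-LIKE against CYST, with a median of 0.79, and edgeR called 0 of them, or 4 once the block was added, while 5 had an unadjusted p under 0.05. The highest Log2FC of the 8 markers was 1.73, for MUC1. The part of the shift of these markers in the TNFSF15 result was not tested.

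TNFSF10 (ENSBTAG00000057675; chromosome 1 from 94984481 to 95007583, plus strand) encodes TRAIL, a ligand that can induce apoptosis. It was at 3.47, 4.42 and 3.51 TPM in CYST replicates 1, 2 and 3, at 5.29, 10.5 and 11.1 TPM in UG-LIKE replicates 1, 2 and 3, and at 7.59, 10.1 and 12.7 TPM in MAT + COL replicates 1, 2 and 3. The CYST libraries were the 3 lowest, and the UG-LIKE and MAT + COL libraries overlapped. In UG-LIKE against CYST the Log2FC was 1.24 (standard error 0.33, edgeR adjusted p = 0.0909) and did not pass. With the replicate block the Log2FC was 1.18 (standard error 0.26, edgeR adjusted p = 0.0325) and passed. The values of MAT + COL against CYST were 1.37 (standard error 0.28, edgeR adjusted p = 0.0608) without the block and 1.32 (standard error 0.23, edgeR adjusted p = 0.0351) with it. Between MAT + COL and UG-LIKE the Log2FC was 0.09 (standard error 0.37).

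IL1A, IL18 and IL33 belong to the interleukin 1 family. The proteins of these 3 genes can be stored in epithelial cells and act after their release. IL1A (ENSBTAG00000072862; chromosome 11 from 46482553 to 46493533, minus strand) was at 2.94, 2.10 and 1.68 TPM in CYST replicates 1, 2 and 3, at 0, 1.17 and 1.31 TPM in UG-LIKE replicates 1, 2 and 3, and at 1.78, 1.91 and 2.16 TPM in MAT + COL replicates 1, 2 and 3. Every UG-LIKE library was below every library of the other groups, and CYST and MAT + COL overlapped. The counts were low, from 17 to 32 in CYST, from 0 to 19 in UG-LIKE and from 28 to 33 in MAT + COL, and the count of 0 in UG-LIKE replicate 1, the shallowest library, allows up to 3 counts. The Log2FC was -1.32 (standard error 0.93, edgeR adjusted p = 0.468) in UG-LIKE against CYST and 1.06 (standard error 0.93, edgeR adjusted p = 1) in MAT + COL against UG-LIKE, so neither difference passed. The gene lies within the span of another annotated gene on the same strand (ENSBTAG00000047637, from 46290659 to 46538104), which had at most 55 counts in a library, so the split of reads between the pair is uncertain.

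IL18 (ENSBTAG00000000277; chromosome 15 from 22475965 to 22501655, minus strand), known as an inducer of interferon gamma, was at 4.52, 8.41 and 9.16 TPM in CYST replicates 1, 2 and 3, at 5.49, 9.32 and 16.0 TPM in UG-LIKE replicates 1, 2 and 3, and at 10.1, 7.65 and 16.0 TPM in MAT + COL replicates 1, 2 and 3. The groups overlapped in each comparison, and replicate 3 was the highest library of every group. Its Log2FC was 0.46 (standard error 0.56, edgeR adjusted p = 0.7) in UG-LIKE against CYST and 0.53 (standard error 0.50, edgeR adjusted p = 0.589) in MAT + COL against CYST.

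IL33 (ENSBTAG00000018347; chromosome 8 from 38472459 to 38546405, minus strand), a nuclear alarm cytokine of barrier epithelium and stroma, was at 0.854, 0.055 and 2.98 TPM in CYST replicates 1, 2 and 3, at 0, 0.154 and 2.26 TPM in UG-LIKE replicates 1, 2 and 3, and at 0.957, 0.258 and 10.4 TPM in MAT + COL replicates 1, 2 and 3. Replicate 3 was the highest library of each group, and the groups overlapped. The MAT + COL replicate 3 library held 190 counts, while the other MAT + COL libraries held 18 and 5. The Log2FC of MAT + COL against UG-LIKE was 2.14 (standard error 1.65, edgeR adjusted p = 1) and ranged from -0.63 to 5.15 as single libraries were left out.

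IL6 (ENSBTAG00000014921; chromosome 4 from 31454757 to 31459131, plus strand), an inflammatory cytokine that signals through gp130, was at 12.2, 1.09 and 25.5 TPM in CYST replicates 1, 2 and 3, at 1.21, 1.25 and 21.1 TPM in UG-LIKE replicates 1, 2 and 3, and at 1.05, 5.11 and 9.64 TPM in MAT + COL replicates 1, 2 and 3. Its highest library was 24.2-fold above its lowest, and replicate 3 was again the highest of each group. The groups overlapped in every comparison, and none of its differences passed: the Log2FC was -0.78 (standard error 1.32, edgeR adjusted p = 0.796) in UG-LIKE against CYST and -1.41 (standard error 1.14, edgeR adjusted p = 0.522) in MAT + COL against CYST. The sign turned with the fit in MAT + COL against UG-LIKE, from -0.69 (standard error 1.27) without the block to 0.07 (standard error 0.63) with it.

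CXCL8 and CCL20 encode chemokines, CXCL8 for neutrophils through CXCR1 and CXCR2, and CCL20 for cells that carry CCR6, among them dendritic cells and lymphocytes. CXCL8 (ENSBTAG00000019716; chromosome 6 from 88810795 to 88814569, plus strand) was at 57.1, 48.6 and 36.7 TPM in CYST replicates 1, 2 and 3, at 8.08, 13.8 and 30.2 TPM in UG-LIKE replicates 1, 2 and 3, and at 22.9, 33.6 and 24.5 TPM in MAT + COL replicates 1, 2 and 3. The CYST libraries were the 3 highest, and the UG-LIKE and MAT + COL libraries overlapped. The group means were 47.5 ± 10.2, 17.4 ± 11.5 and 27.0 ± 5.77 TPM (SD, n = 3 each).

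The Log2FC of CXCL8 was -1.42 (standard error 0.47, edgeR adjusted p = 0.139) in UG-LIKE against CYST, and the replicate block gave -1.60 (standard error 0.42, edgeR adjusted p = 0.0511), so it passed in neither fit. Without UG-LIKE replicate 3 the unblocked value was -2.12 (edgeR adjusted p = 0.0489), which passed, and without UG-LIKE replicate 1 it was -1.02. The log2 CPM difference was -2.76, -1.69 and -0.46 at replicate numbers 1, 2 and 3. For MAT + COL the Log2FC was -0.86 against CYST (standard error 0.24, edgeR adjusted p = 0.102) and 0.52 against UG-LIKE (standard error 0.50, edgeR adjusted p = 1). The summed level of the 5 smooth muscle markers, most of it from ACTA2 and TAGLN, was likewise higher in the CYST libraries, at 148.9 to 187.8 TPM against 40.5 to 88.6 in UG-LIKE and 73.5 to 94.9 in MAT + COL, with 4 negative Log2FC and 1 positive (MYH11, 0.07) in UG-LIKE against CYST. All 7 fibroblast and stroma markers had a negative Log2FC in UG-LIKE against CYST, with a median of -0.71. Without the block edgeR called 0 genes of these 2 lists. With it, 1 of the 7 stroma markers (DCN, edgeR adjusted p = 0.0252) and 1 of the 5 smooth muscle markers (TAGLN, edgeR adjusted p = 0.00719) fell, against 10.6% of all genes called in either direction. Of the leukocyte markers, 6 passed the filter there, 5 of them with a negative Log2FC and a median of -1.345 over the 6, and the TPM ranges of NKG7 (-2.51) and CD68 (-1.23) did not overlap. edgeR called 0 of the 6 with or without the block, with 1 at an unadjusted p under 0.05 without it. The part of any of these in the CXCL8 and IL1A values, or in those of the other chemokine genes, was not tested.

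CCL20 (ENSBTAG00000021326; chromosome 2 from 115948297 to 115951540, plus strand) was at 1.46, 0.501 and 9.44 TPM in CYST replicates 1, 2 and 3, at 5.00, 0.703 and 11.3 TPM in UG-LIKE replicates 1, 2 and 3, and at 0.485, 0 and 2.74 TPM in MAT + COL replicates 1, 2 and 3. These values rest on 2 to 36 counts in the CYST and UG-LIKE libraries and on 0 to 11 in the MAT + COL libraries, and the groups overlapped. At each replicate number the MAT + COL library was the lowest of the 3. The Log2FC of MAT + COL against UG-LIKE was -2.43 (standard error 1.42, edgeR adjusted p = 1) and ranged from -4.51 to -1.27 as single libraries were left out, and the gene was below the filter on low counts in MAT + COL against CYST.

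The 10 genes differed in whether their variance lay between the groups or between the replicate numbers, which same-numbered libraries of the 3 groups share. For TNFSF15, 89.2% of the variance of log2 CPM over the 9 libraries lay between groups and 4.88% between replicate numbers. TNFSF10, at 70.5% and 24.0%, and CXCL8, at 62.0% and 10.8%, also varied mainly with the group. CSF2 was evenly split, at 44.2% and 40.6%, and IL1A was at 44.0% between groups and 16.7% between replicate numbers. For IL33, CSF1, IL18, CCL20 and IL6 the share between replicate numbers was 76.8%, 74.0%, 72.5%, 71.2% and 63.3%, and the share between groups was 13.4%, 18.9%, 14.6%, 24.8% and 6.92%. The medians over 12858 genes were 29.9% between groups and 32.0% between replicate numbers.

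**Figure D3:**
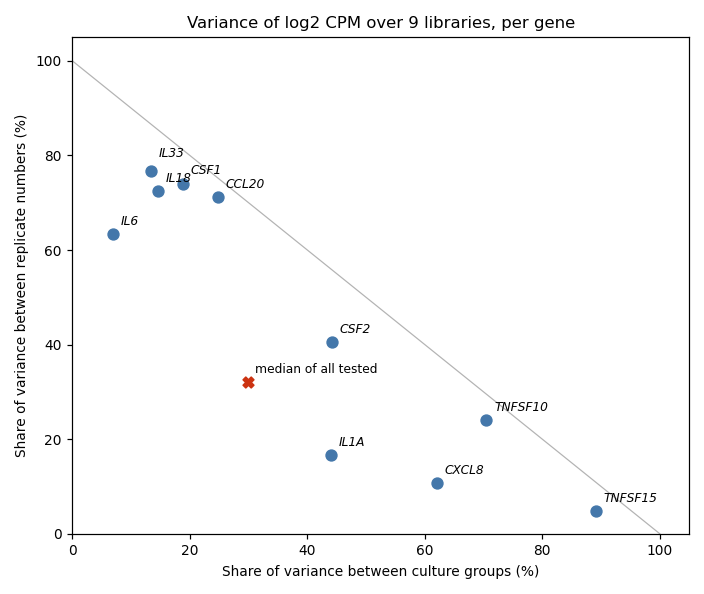
Share of the variance of log2 CPM over the 9 libraries that lies between the 3 culture groups (x axis, %) and between the 3 replicate numbers (y axis, %), 1 point per gene, with the median of all 12858 genes as a cross and a line where both shares sum to 100%. TNFSF15, TNFSF10 and CXCL8 lie at the lower right and IL33, CSF1, IL18, CCL20 and IL6 at the upper left.

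Across the 9 libraries, which share culture groups and replicate numbers, some of the genes moved alike. The Pearson correlation of log2 CPM was 0.90 for CSF2 and CCL20, 0.85 for TNFSF15 and TNFSF10, 0.84 for IL1A and CXCL8 and 0.75 for IL33 and IL6. It was lowest for CSF1 and TNFSF10, at -0.73, and was -0.68 for TNFSF15 and CXCL8.

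Among the 12858 genes, those with the pattern most like TNFSF15 over the 9 libraries were KRTCAP3 (r = 0.99), CRYBG2 (r = 0.97) and KRT8 (r = 0.97), the last of which encodes a keratin of simple epithelium. KRT8 was at 8884, 8108 and 7952 TPM in CYST replicates 1, 2 and 3, at 17770, 15540 and 13170 TPM in UG-LIKE, and at 12970, 13330 and 18310 TPM in MAT + COL, so MAT + COL replicate 3 was the highest MAT + COL library for both genes. The genes most like CXCL8 were PDGFRB (r = 0.98), a receptor of mesenchymal cells, CDC42EP2 (r = 0.96) and TSHZ3 (r = 0.96). PDGFRB itself was low, at 0.80 to 1.19 TPM in CYST, 0.21 to 0.66 in UG-LIKE and 0.50 to 0.66 in MAT + COL. CSF2 was closest to FXYD1 (r = 0.96) and TYW5 (r = 0.91).

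The closest genes to TNFSF10 were KCTD9, ZDHHC3 and CYB561D1 (r = 0.97 or more), and those closest to CSF1 were CES2, TSEN15 and ADGRA3 (r = 0.96 or more). IL6 was closest to NODAL (r = 0.96), AGR2 (r = 0.96) and PLAC8A (r = 0.94). IL18 was closest to REXO1, LACC1 and CCDC157 (r = 0.95 or more), IL33 to TBC1D19, PCBP3 and SMAP1 (r = 0.92 or more), and IL1A to LVRN, DCUN1D4 and EXOSC3 (r = 0.97 or more). CCL20 was closest to TXNL4B (r = 0.96) and ADAP2 (r = 0.94). These genes are given by their likeness over 9 libraries alone, as a description.

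Other genes of the same pathways were taken from lists. Over all 12074 genes tested in UG-LIKE against CYST, edgeR called 1.79% without the block and 10.6% with it. The unadjusted p without the block was under 0.05 for 20.7% of them. The counts of each list below are set beside these shares, and a count near them is no result about the list. Of 36 other chemokine ligands, 30 were in the tables and 13 were tested in UG-LIKE against CYST. Their median Log2FC was -1.035, with 9 negative and 4 positive values, and edgeR called 0 without the block, 5 had an unadjusted p under 0.05, and 3 fell with the block. These 3 were CXCL14, CXCL5 and CXCL2. CXCL14, a chemokine of epithelia, was at 128.6 ± 60.5 TPM in CYST, 45.8 ± 27.9 in UG-LIKE and 51.2 ± 38.7 in MAT + COL (SD, n = 3 each), with a blocked Log2FC of -1.58 (edgeR adjusted p = 0.0120) against -1.53 (edgeR adjusted p = 0.187) without the block.

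CXCL5 and CXCL2 lie beside CXCL8 in the chemokine cluster of chromosome 6, 82.4 and 131.8 kb from it, and act on neutrophils like it. CXCL5 was at 568.3, 528.3 and 628.6 TPM in CYST replicates 1, 2 and 3, at 241.4, 129.2 and 465.6 TPM in UG-LIKE replicates 1, 2 and 3, and at 316.7, 405.5 and 395.4 TPM in MAT + COL replicates 1, 2 and 3. The CYST libraries were the 3 highest, and the level was more than that of any of the 10 genes. CXCL2 was at 66.7, 38.1 and 26.3 TPM in CYST, at 16.8, 9.13 and 17.3 TPM in UG-LIKE, and at 20.3, 22.15 and 16.2 TPM in MAT + COL replicates 1, 2 and 3, with the CYST libraries again the 3 highest. The Log2FC of UG-LIKE against CYST was -1.06 (edgeR adjusted p = 0.228) for CXCL5 and -1.58 (edgeR adjusted p = 0.0843) for CXCL2, and with the block -1.24 (edgeR adjusted p = 0.0262) and -1.56 (edgeR adjusted p = 0.0298). As single libraries were left out, the unblocked values ranged from -1.69 to -0.71 for CXCL5 and from -1.78 to -1.15 for CXCL2.

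The next genes of the cluster did not pass in either fit. CXCL3, 246.7 kb away, had a Log2FC of 0.12 (standard error 0.71, edgeR adjusted p = 0.946), and GRO1, 258.2 kb away, had -0.92 (standard error 0.50, edgeR adjusted p = 0.343). CXC chemokines of this cluster are similar in sequence, so reads shared between them could have been split in the counting. Some other members also had relatives within 500 kb. IL3 next to CSF2 had no count in any library, TNFSF8 next to TNFSF15 had a Log2FC of 0.73 (edgeR adjusted p = 0.797), and IL1B next to IL1A had at most 24 counts. Further from IL1A, IL37, IL36B and IL1F10 had no count, IL36G and IL36RN had at most 3 and 4 counts, and IL36A had at most 30, with 1.24 ± 1.08 TPM in CYST, 0.232 ± 0.402 in UG-LIKE and 0.236 ± 0.286 in MAT + COL (SD, n = 3 each), below the filter. IL1RN, the interleukin 1 receptor antagonist gene 322 kb from IL1A, was at 46.5 ± 9.93 TPM in CYST, 80.1 ± 35.1 in UG-LIKE and 80.7 ± 32.6 in MAT + COL (SD, n = 3 each), with a Log2FC of 0.77 (standard error 0.33, edgeR adjusted p = 0.236).

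**Figure D4:**
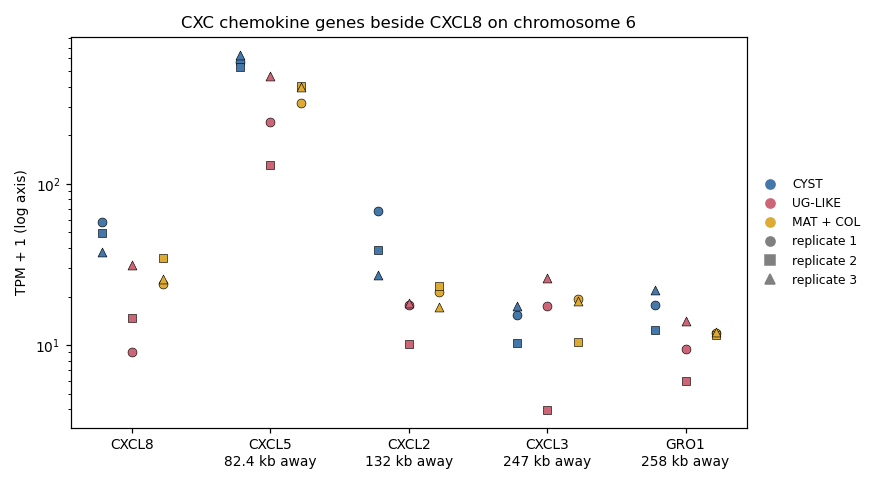
TPM + 1 (y axis, log scale) of CXCL8 and 4 CXC chemokine genes within 500 kb of it on chromosome 6 (x axis, with the distance from CXCL8 in kb), 1 point per library, coloured by group and shaped by replicate number. The CYST points are the 3 highest for CXCL8, CXCL5 and CXCL2, while the groups overlap for CXCL3, and for GRO1 the UG-LIKE points overlap both other groups and the MAT + COL points lie just below the CYST points.

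Of 48 other interleukins and colony stimulating factors, 45 were in the tables and 10 were tested, with a median Log2FC of 0.20. edgeR called 0 without the block, 2 had an unadjusted p under 0.05, and 1 rose with the block. This was TSLP, an epithelial cytokine of the type 2 response, at 48.8 ± 32.7 TPM in CYST, 179.8 ± 99.4 in UG-LIKE and 195.4 ± 165.0 in MAT + COL (SD, n = 3 each). Its Log2FC was 1.81 (edgeR adjusted p = 0.153) without the block and 1.96 (edgeR adjusted p = 0.00583) with it in UG-LIKE against CYST, and in MAT + COL against CYST it was 1.85 (edgeR adjusted p = 0.0163) with the block. The unblocked 1.81 became 1.21 without UG-LIKE replicate 3 and 2.63 without CYST replicate 3. In both groups with EGF its mean TPM was above that of each of the 10 genes.

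Of 16 other TNF superfamily ligands, 15 were in the tables and 7 were tested, with a median Log2FC of 0.73, and 1 rose with or without the block. This was TNFSF9, the ligand of 4-1BB on T cells, at 12.7, 10.9 and 11.7 TPM in CYST replicates 1, 2 and 3, at 33.2, 31.8 and 28.8 TPM in UG-LIKE and at 22.1, 29.8 and 22.9 TPM in MAT + COL. The CYST libraries were the 3 lowest, as for TNFSF15 and TNFSF10. Its Log2FC in UG-LIKE against CYST was 1.39 (standard error 0.24, edgeR adjusted p = 0.0403). The call was lost when any 1 library other than CYST replicate 3 was left out, with edgeR adjusted p from 0.0705 to 0.150 and Log2FC from 1.31 to 1.43.

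For the receptors and decoys of the 10 proteins, 19 of 23 genes were in the tables and 11 were tested, with 9 negative values and a median Log2FC of -0.56. edgeR called 0 without the block, 2 had an unadjusted p under 0.05, and with the block 1 fell, IL6R, the ligand-binding receptor of IL6, at 34.1 ± 30.5 TPM in CYST, 4.25 ± 3.11 in UG-LIKE and 5.18 ± 1.18 in MAT + COL (SD, n = 3 each). Its Log2FC was -3.09 (edgeR adjusted p = 0.0884) without the block and -2.89 (edgeR adjusted p = 0.00352) with it. CYST replicate 3 was at 69.3 TPM and the other CYST libraries at 18.3 and 14.7, and without it the unblocked Log2FC was -1.83. For processing, release and shedding of cytokines, 15 of 16 genes were in the tables and 12 were tested, with a median of 0.22, 2 with an unadjusted p under 0.05 and 0 calls without the block. With the block 1 rose, CASP8, an initiator caspase below the death receptors of ligands such as TRAIL, with a Log2FC of 1.00 (edgeR adjusted p = 0.0153) against 0.98 (edgeR adjusted p = 0.136) without it.

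All 24 listed genes of the NF-kB pathway, a main route to cytokine transcription, were tested, with a median Log2FC of 0.21, 17 positive and 7 negative values, 3 with an unadjusted p under 0.05 and 0 calls without the block. With the block 2 of the 24 rose, against 10.6% of all genes called in either direction. They were RELB, a subunit of the noncanonical arm, with a Log2FC of 1.72 (edgeR adjusted p = 0.0198), and BIRC3, a ubiquitin ligase of TNF receptor complexes, with 0.67 (edgeR adjusted p = 0.0378). RELB varied widely, from 0.510 to 5.53 TPM in CYST, 1.62 to 22.8 in UG-LIKE and 1.91 to 23.4 in MAT + COL. Its unblocked Log2FC was 1.76 (edgeR adjusted p = 0.392) and ranged from 0.94 to 2.40 as single libraries were left out, and that of BIRC3 was 0.67 (edgeR adjusted p = 0.209).

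All 12 genes of cytokine mRNA decay and stability were tested, with a median of 0.12, none at an unadjusted p under 0.05 and 0 calls in edgeR without the block. With the block 1 rose, ZFP36L2, which encodes a protein that destabilises AU-rich mRNAs, with a Log2FC of 1.21 (edgeR adjusted p = 0.0168) against 1.38 (edgeR adjusted p = 0.247) without the block. UG-LIKE replicate 3 was its highest UG-LIKE library, at 390.6 TPM against 215.5 and 76.2, and without it the unblocked Log2FC was 0.69. Of 18 genes for Toll-like receptors and adaptors, all in the tables, 14 were tested, with a median of 0.17, 1 with an unadjusted p under 0.05 and 0 calls without the block. With the block 1 rose, LY96, the coreceptor of TLR4, at 7.90 ± 0.602 TPM in CYST, 14.5 ± 0.806 in UG-LIKE and 14.0 ± 0.186 in MAT + COL (SD, n = 3 each), with a Log2FC of 0.86 (edgeR adjusted p = 0.0361) against 0.85 (edgeR adjusted p = 0.0822) without it. Between MAT + COL and UG-LIKE, edgeR called 0 genes of each of these lists, with or without the block.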

How the data were processed

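RNA-seq counts and TPM values of 20679 genes in 9 libraries were analysed, 3 per group, with groups and replicate numbers from the labels. Libraries were made with the SMART-Seq HT PLUS kit. Reads were trimmed and mapped to ARS-UCD2.0 in CLC Genomics Workbench 25.0.1, and the authors deposited the number of reads per gene as counts, not normalized. The authors also deposited TPM, scaled to transcript length and library size. The annotation release, strand setting and handling of reads with several matches are not given in the sources used here. Counts of amplified reads carry no molecular identifiers, so their floors cover counting error only. Total counts were 6568968 to 17948600 per library, and IL1A and CCL20, with at most 33 and 36 counts in a library, were measured with low precision.

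The members and gene lists were chosen with earlier results of these data known. Counts were tested with edgeR 4.0.16 (R 4.3.3; filterByExpr with a minimum count of 10, TMM, quasi-likelihood test, 2-sided), 2 groups at a time, with Benjamini-Hochberg adjustment over all genes tested, and a gene was called at an adjusted p under 0.05. Log2FC is the fitted log2 fold change. Log2 CPM used a prior count of 2. The variance split and correlations used the 12858 genes that passed the filter over 9 libraries, of 15904 with any count. The edgeR step was run on simulated counts with known changes, to check the size of the fitted Log2FC. Those counts held no effect of the replicate number, so the run does not bear on the calls given here. The DEG criteria were applied to the edgeR fit, with a TPM over 1 in every library compared. Alternatives were DESeq2 1.42.0, RLE size factors, no filter, all 9 libraries in one fit, limma 3.58.1 on log2(TPM + 1) and log2(TPM + 0.1) for genes at 1 TPM or more in 3 libraries, the DEG criteria of the methods (Log2FC beyond 1, TPM over 1), each library left out, and the replicate number as a block.

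Same-numbered libraries deviated together from their group means, with correlations of 0.31, 0.41 and 0.38 between UG-LIKE and CYST, 0.46, 0.59 and 0.67 between MAT + COL and UG-LIKE, and 0.29, 0.36 and 0.36 between MAT + COL and CYST for numbers 1, 2 and 3, all over 0.1, so the numbers were taken to pair the libraries. The pairing comes from the numbers in the labels and this check.

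Named were all members, up to 4 genes per list with an adjusted p under 0.05 in UG-LIKE against CYST (first without, then with the block), relatives of members within 500 kb, and the 3 genes with the highest correlation to each member, except 1 gene that is not reported here and 1 without a symbol. CXCL3, GRO1, IL3, TNFSF8, IL1B, IL1RN, IL37, IL1F10 and the IL36 genes were named by that position and not by their values. No gene identifier matched the RefSeq table by Ensembl number, and all 10 members matched by symbol. Promoter motifs were not analysed here.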

Additional observations from a re-analysis of the deposited data

How the results depend on the processing

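The number of the 10 genes called in UG-LIKE against CYST was 1, and 1 under RLE size factors, no filter, all 9 libraries, limma at both pseudocounts and the DEG criteria. It was 2 with the replicate block (10.6% of all genes), 3 with DESeq2 (9.68%) and 3 with all 9 libraries and the block (16.5%), where CXCL8 joined TNFSF15 and TNFSF10 (adjusted p = 0.0346 with DESeq2 and 0.0361 in edgeR), and 0 to 2 as single libraries were left out: 0 without CYST replicate 1 or UG-LIKE replicate 1, where 7 and 9 genes in all were called, and 2, TNFSF15 and CXCL8, without UG-LIKE replicate 3. In MAT + COL against UG-LIKE the number was 0 under every alternative run. In MAT + COL against CYST it was 0, and 2 with the block (5.26% of all genes), 3 with DESeq2 (11.6%), 1 without the filter (1.26%), 1 with all 9 libraries (4.67%), 2 with all 9 libraries and the block (15.8%), 1 with limma at each pseudocount (1.7% and 1.44%), and 0 without any single library. In the fits of 2 groups at a time, the block changed the call of TNFSF10 in both comparisons with CYST. It also changed that of TNFSF15 in MAT + COL against CYST, and of no other member. The cause of these changes was not tested.

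The Log2FC of IL6 in MAT + COL against UG-LIKE turned from -0.69 to 0.0727 with the block, 0.21 with all 9 libraries and the block, 0.0938 with limma on log2(TPM + 1) and 0.22 on log2(TPM + 0.1). Leaving out single libraries turned the sign of uncalled values. In UG-LIKE against CYST the ranges were -0.0819 to 0.60 for CSF2, -0.0423 to 0.81 for IL18, -1.26 to 1.07 for IL33, -3.52 to 0.39 for IL6 and -0.71 to 2.67 for CCL20. In MAT + COL against UG-LIKE they were -0.18 to 0.82 for CSF1, -0.18 to 0.31 for TNFSF10, -0.35 to 0.55 for IL18, -0.63 to 5.15 for IL33 and -1.48 to 2.08 for IL6. In MAT + COL against CYST they were -0.74 to 0.0909 for CSF1 and -1.34 to 3.33 for IL33. IL33 was below the filter without UG-LIKE replicate 3 in UG-LIKE against CYST and in the limma fits. IL1A and CCL20, with at most 33 and 36 counts in a library, had standard errors of 0.93 and 1.29 on the log2 scale in UG-LIKE against CYST.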
